A study of Mus musculus with 3 samples.

Results

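The genes described here are 31 enzymes and regulators that make cholesterol and fatty acids, given as a fixed list of symbols, out of 27179 genes counted in cultured mouse pro-B cells. All 31 were found through their Entrez numbers, and all 31 passed the filter on low counts. They fall into 17 genes of sterol synthesis and transfer, 5 genes that control the sterol regulatory element-binding proteins (SREBPs), and 9 genes of fatty acid synthesis, which were kept apart. RNA was sequenced from 2 Pax5-/- samples and 1 wild-type sample. Every sample came from bone marrow of C57BL/6 mice, as B220+ cells expanded on OP9, a stromal feeder line. Both Pax5-/- samples were male, and the labels give for them a magnetic removal of IgM+ cells at day 7. The single wild-type sample was female, and its protocol names neither a day nor that removal, so genotype, sex and this step cannot be told apart. Pax5 is a transcription factor that commits precursors to the B lineage, and the comparison asks what differs in its absence.

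Cells build cholesterol from acetyl-CoA through mevalonate, squalene and lanosterol, and fatty acids from the same precursor through malonyl-CoA. Transcription of both pathways is driven by SREBPs, membrane proteins that Scap escorts to the Golgi for release when sterols are scarce and that the Insig proteins hold back when sterols are plentiful. Fatty acid chains are then lengthened by Elovl elongases and given double bonds by Scd and Fads desaturases, which shapes how fluid the membranes of a dividing cell are.

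Of the 17 sterol genes, 0 were called different between the genotypes, and 4 of the 9 fatty acid genes were. A gene was called where its Benjamini-Hochberg adjusted p, from edgeR's quasi-likelihood test over all 11783 genes tested, was under 0.05. Among the sterol genes 0 had an unadjusted p under 0.05. DESeq2 and limma-voom also called 0. Of the 9 fatty acid genes, 2 fell, the desaturase gene Scd1 and the elongase gene Elovl6. Another 2 rose, the desaturase gene Fads2 and the elongase gene Elovl5, and 5 were not called. Of the 5 control genes, 0 were called with edgeR, DESeq2 or limma-voom, and 0 had an unadjusted p under 0.05. Among all genes tested 18.1% were called, 9.53% higher and 8.55% lower in Pax5-/-. The 4 called of 31 members are a share near that background, and whether the arms differ from each other was not tested.

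**Figure D1:**
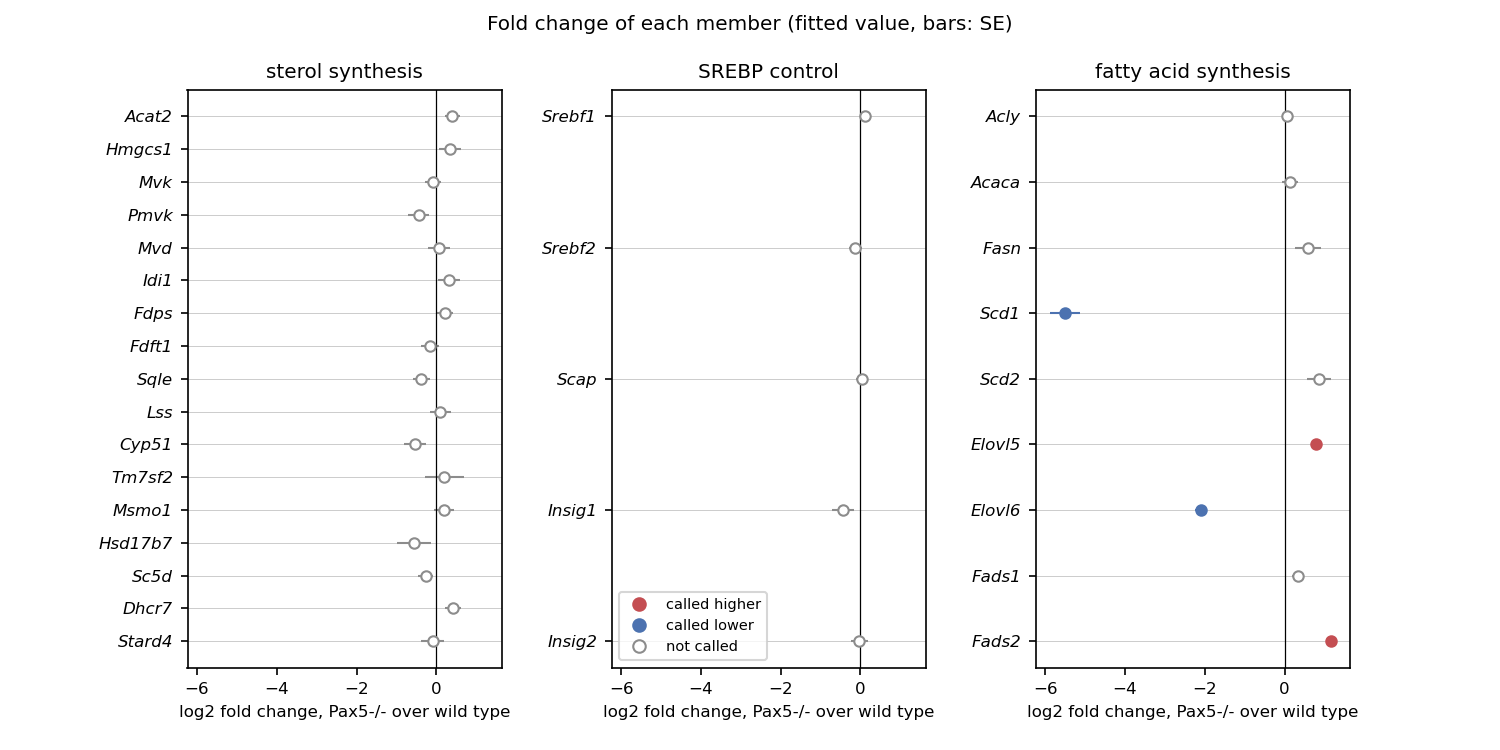
Fitted log2 fold change of each member, Pax5-/- over wild type, with bars for its SE, in 3 panels by arm. Filled points were called and open points were not: Scd1 at -5.51 and Elovl6 at -2.11 lie far left of zero, Fads2 and Elovl5 lie right of it, and the 17 sterol genes stay between -0.55 and 0.41.

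The libraries held 6487846 to 6697879 counts, and the Pax5-/- samples are independent ones by their labels. Spread between replicates could be seen in these 2 samples alone. The fit moderated each gene's error with that of other genes, with 3.15 prior degrees of freedom beside 1 residual one. Pax5 itself had 1601 counts in the wild type, against 417 in Pax5-/- sample 1 and 551 in sample 2. Which exons the allele lacks is not given in the sources used here, so the remaining counts check nothing. Marker counts below stand beside a share of 18.1% called over all genes tested. Of 12 pro-B markers all were tested, 4 were called higher and 6 lower in Pax5-/-, and 2 were not called. Among 14 markers of stroma or adipocytes, the kind of cell in the OP9 layer, 4 were at 0 in every library (Dcn, Lum, Plin1 and Cfd). Their summed level was 17.6 CPM (counts scaled to a common library size) in the wild type, against 9.26 and 6.32 CPM in Pax5-/-. Summed levels of 10 myeloid markers were 34.0 and 49.6 against 91.7 CPM. Of these, S100a8, S100a9 and Ngp were called lower, with 0 counts in both Pax5-/- libraries against 30, 232 and 115, and Lyz2 was called higher, at 92 and 128 counts against 28. Of erythroid markers, 0 of 5 erythroid markers passed the filter. Of 10 proliferation genes 1 was called, Ccna2, lower in Pax5-/-. The median fitted log2 fold change of these 10 genes was -0.31, where all genes tested had 0.0074. Tyms alone was fitted higher in Pax5-/-, at 0.26, and was not called. The Pax5-/- libraries stood apart from each other in interferon-response genes: Isg15 had 1832 and 20 counts and Irf7 2361 and 77, against 334 and 280 in the wild type. Isg15 and Irf7 were chosen after their values were seen.

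Sterol synthesis begins with Acat2, which joins acetyl-CoA units, and Hmgcs1, which makes HMG-CoA. Levels are given as CPM after TMM scaling of the libraries, in the order Pax5-/- sample 1, Pax5-/- sample 2 and wild type. Acat2 stood at 41.5, 49.6 and 34.5 CPM (log2 fold change 0.40, SE 0.18, adjusted p = 0.2004). Hmgcs1 stood at 169, 248 and 164 CPM. For Hmgcs1, Pax5-/- sample 1 lay beside the wild type and sample 2 above both. Its fitted difference (log2 fold change 0.35, SE 0.27, adjusted p = 0.416) had a 95% interval from -0.39 to 1.08.

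Mevalonate is next phosphorylated, decarboxylated and joined into isoprenoids. Mvk, mevalonate kinase, stood at 17.9, 17.3 and 18.7 CPM, with the libraries almost level. Pmvk, which adds the next phosphate, stood at 14.7, 19.7 and 23.4 CPM, with the wild type highest (log2 fold change -0.44, SE 0.26, adjusted p = 0.292). Mvd, the decarboxylase, stood at 20.4, 28.8 and 23.4 CPM, with the wild type between the Pax5-/- samples. Idi1, the isomerase of the isoprene unit, stood at 23.9, 33.6 and 23.1 CPM. Fdps, which builds farnesyl diphosphate, stood at 23.8, 20.3 and 19.0 CPM, with the wild type lowest in both.

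At the squalene and lanosterol steps Pax5-/- sample 1 was the lowest library throughout. Fdft1, squalene synthase, stood at 45.8, 61.0 and 59.7 CPM. Sqle, the squalene epoxidase that is a control point of the pathway, stood at 94.9, 126 and 143 CPM (log2 fold change -0.37, SE 0.22, adjusted p = 0.296). Lss, which closes the sterol rings, stood at 30.9, 44.1 and 34.9 CPM. The wild type was inside the range of the Pax5-/- pair for Fdft1 and Lss and above it for Sqle.

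The enzymes after lanosterol held the 2 largest fitted differences of the arm, and 0 of them were called. Hsd17b7, a ketosterol reductase, stood at 14.5, 28.3 and 31.4 CPM (log2 fold change -0.55, SE 0.43, adjusted p = 0.419). Cyp51, the lanosterol demethylase, stood at 85.8, 130 and 156 CPM (log2 fold change -0.53, SE 0.28, adjusted p = 0.259). In both genes the wild type was highest, and the gap between the Pax5-/- samples was wider than the gap from sample 2 to the wild type. Dhcr7, a reductase at the end of the pathway, went the other way at 93.7, 117 and 79.5 CPM (log2 fold change 0.41, SE 0.20, adjusted p = 0.232). Msmo1, a methylsterol oxidase, stood at 58.2, 81.5 and 61.5 CPM. Sc5d, a sterol desaturase, stood at 42.6, 52.4 and 57.2 CPM. The wild type was within the Pax5-/- range for Msmo1 and above it for Sc5d. Tm7sf2, a sterol reductase, was the scarcest member with 21, 17 and 16 counts. Stard4, a carrier of cholesterol between membranes, stood at 40.3, 61.8 and 54.4 CPM.

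As a whole the sterol arm had a median difference of 0.05 in log2 CPM (prior count 2), Pax5-/- minus wild type, where all genes tested had -0.0026. The median was -0.18 in Pax5-/- sample 1 and 0.09 in sample 2, so its sign differed between the samples. Adjusted p-values of the 17 genes were 0.2004 or higher. The 95% intervals of single genes reached down to -1.71 (Hsd17b7) and up to 1.53 (Tm7sf2), and changes within these bounds were not resolved by 3 libraries. The wild type lay outside the range of the Pax5-/- pair for 12 of 17 sterol genes, 2 of 5 control genes and 7 of 9 fatty acid genes, where 85.2% of all genes tested did.

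**Figure D2:**
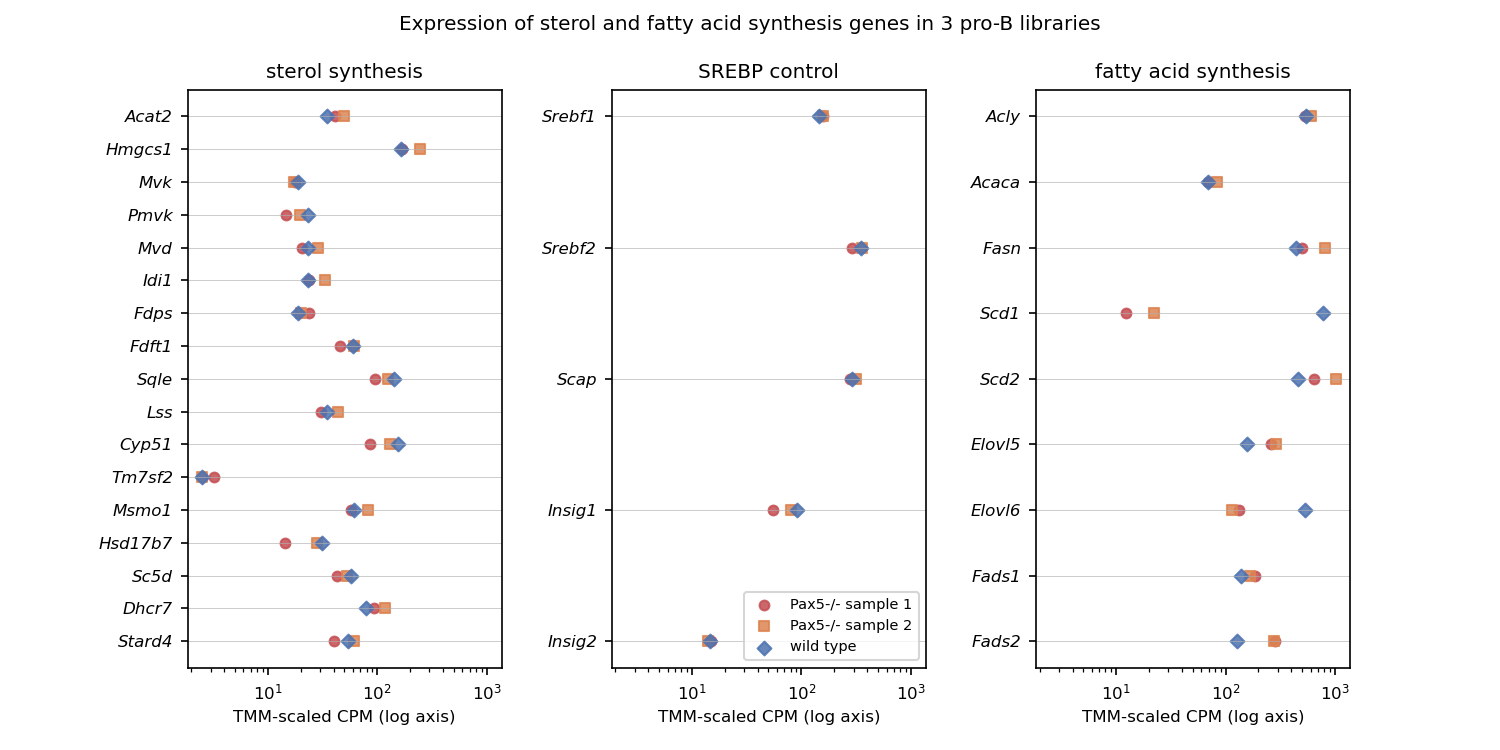
TMM-scaled CPM of each member on a log axis, 1 point per library, in 3 panels by arm. Among the sterol genes Hsd17b7 spreads widest, from 14.5 to 31.4 CPM, and for Scd1 the Pax5-/- libraries, at 12.2 and 22.2 CPM, lie far below the wild type at 783 CPM.

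Levels between genes were compared per length, as RPKM (scaled counts per kilobase of the deposited gene length). In the wild type Sqle at 52.1 and Hmgcs1 at 49.9 RPKM led the sterol arm, followed by Cyp51 at 35.8, Msmo1 at 33.7 and Dhcr7 at 28.2 RPKM. In Pax5-/- Hmgcs1 led at 63.5 ± 17.0 RPKM (SD, n = 2), ahead of Sqle at 40.2 ± 8.01, Msmo1 at 38.3 ± 9.05 and Dhcr7 at 37.5 ± 5.95 RPKM. The last 3 were within 1 SD of each other. Tm7sf2 was lowest in both groups, at 1.94 ± 0.356 and 1.69 RPKM. The summed level of the 17 genes was 311 and 413 RPKM in Pax5-/- and 361 RPKM in the wild type, which lay between them.

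None of the 5 control genes was called. Srebf1, which encodes the SREBP that favours fatty acid genes, stood at 157, 157 and 144 CPM (log2 fold change 0.12, SE 0.13, adjusted p = 0.538). Srebf2, which encodes the SREBP that favours sterol genes, stood at 290, 355 and 353 CPM (log2 fold change -0.13, SE 0.16, adjusted p = 0.608). Scap, their escort, stood at 278, 314 and 290 CPM (log2 fold change 0.03, SE 0.13). For Srebf2 and Scap the wild type lay within the Pax5-/- pair. Insig1, a retention factor that SREBP itself induces, stood at 54.5, 81.1 and 91.9 CPM (log2 fold change -0.44, SE 0.28, adjusted p = 0.332), with the wild type highest. Insig2, the other retention factor, stood at 14.8, 14.0 and 14.7 CPM, nearly level.

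Much of the spread in the sterol arm lay between the Pax5-/- libraries. Of its 17 genes, 14 were higher in sample 2 than in sample 1, with a median difference of 0.42 in log2 CPM, where 52.5% of all genes tested were higher and the median was 0.02. Hsd17b7 differed most, by 0.95, followed by Stard4 at 0.61, Cyp51 at 0.59 and Hmgcs1 at 0.55. Mvk, Fdps and Tm7sf2 were the 3 that were not higher, at -0.05, -0.23 and -0.34. Of the control genes Insig1 differed by 0.57 and Srebf2 by 0.29, while Srebf1 was level at -0.0035. In the fatty acid arm Scd1 differed by 0.85, Fasn by 0.69 and Scd2 by 0.64, whereas Elovl6 at -0.22, Fads1 at -0.15 and Fads2 at -0.03 did not share this. With 1 library on each side there is no test of these differences. The proliferation genes differed by a median of -0.17, and 2 of 10 were higher in sample 2. Isg15, with 1832 and 20 counts, and Irf7 were high in sample 1, the library with lower sterol genes, and their part in this difference was not tested.

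**Figure D3:**
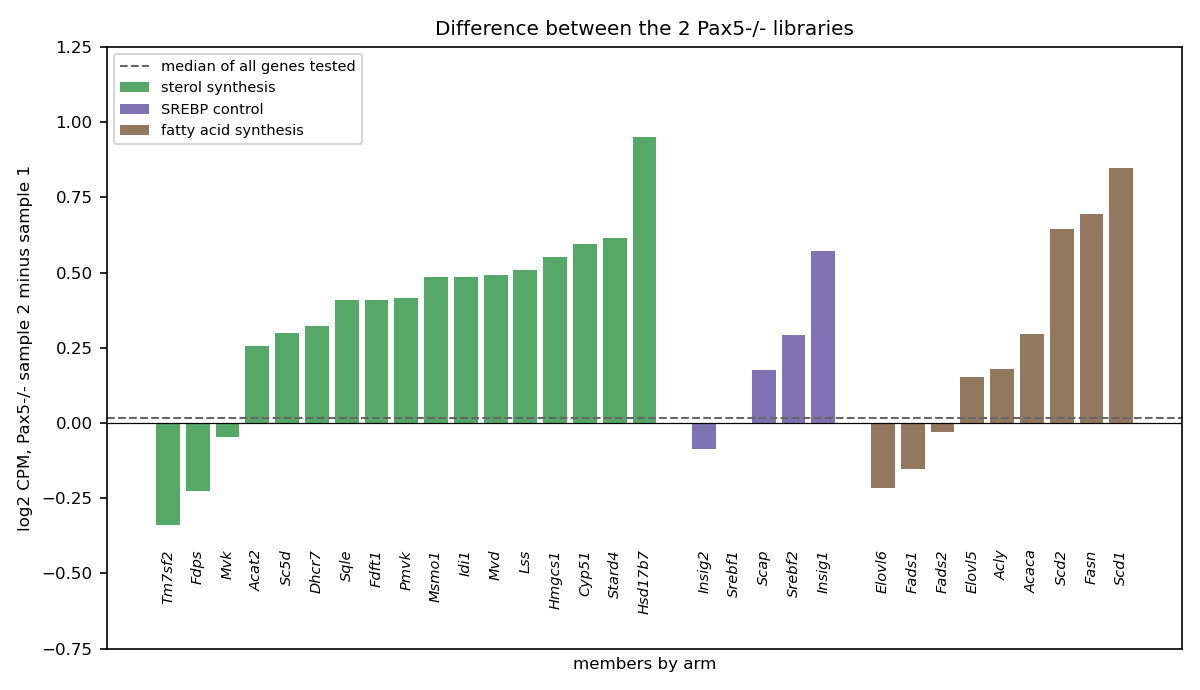
Difference in log2 CPM between the Pax5-/- libraries, sample 2 minus sample 1, 1 bar per member, sorted within each arm, with the median of all genes tested as a dashed line. Bars of 14 of 17 sterol genes are above zero, up to 0.95 for Hsd17b7.

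Promoters were read because most sterol genes differed in the same direction between those libraries. RefSeq promoter windows (GRCm38.p6, the assembly that mm10 names, 250 bases before to 50 after each start) were found for 24 of the 31 members. The other members are Fdps, Fdft1, Sqle, Stard4, Scd1, Scd2 and Fads1. Searched on both strands were TCACNCCAC, a sterol regulatory element, CCAAT, the box bound by NF-Y, GGGCGG, the box bound by Sp1, and the palindrome CACGTG, an E-box. None of these motifs contains another. CCAAT was in a window of 12 of 13 sterol genes, 4 of 5 control genes and 3 of 6 fatty acid genes, where 41.1% of all 27025 genes with a window in the RefSeq promoter table had it. GGGCGG was in 12 of 13, 5 of 5 and 2 of 6, where 38.2% of those genes had it. CACGTG was in 3 of 13, 2 of 5 and 1 of 6, against 8.09%. TCACNCCAC was in 1 of 24, that of Hmgcs1, against 1.44%. The 27025 genes include ones that were not tested here, whereas all members passed the filter on low counts. The shares are thus not those of expressed genes, which were not computed. A match describes letters and is not a binding site.

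The 250 bases before the start are printed for Hmgcs1, Msmo1 and the 3 called fatty acid genes that had a window. Hmgcs1 and Msmo1 are sterol genes with several CCAAT and GGGCGG boxes, though Mvk, with 5 CCAAT and 2 GGGCGG boxes, holds more than Msmo1. Capitals mark motif matches on either strand, so that ATTGG is CCAAT and CCGCCC is GGGCGG read on the other strand. Hmgcs1 is read from chr13:119690101-119690350 on the plus strand and Msmo1 from chr8:64733579-64733828 on the minus strand. Elovl6 is read from chr3:129532136-129532385 and Elovl5 from chr9:77917115-77917364, both on the plus strand. Fads2 is read from chr19:10101504-10101753 on the minus strand.
Hmgcs1: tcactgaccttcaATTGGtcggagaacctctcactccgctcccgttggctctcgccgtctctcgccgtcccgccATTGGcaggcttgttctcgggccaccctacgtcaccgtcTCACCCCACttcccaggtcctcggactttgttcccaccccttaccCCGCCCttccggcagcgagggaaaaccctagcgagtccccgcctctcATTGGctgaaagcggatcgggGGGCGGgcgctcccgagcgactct
Msmo1: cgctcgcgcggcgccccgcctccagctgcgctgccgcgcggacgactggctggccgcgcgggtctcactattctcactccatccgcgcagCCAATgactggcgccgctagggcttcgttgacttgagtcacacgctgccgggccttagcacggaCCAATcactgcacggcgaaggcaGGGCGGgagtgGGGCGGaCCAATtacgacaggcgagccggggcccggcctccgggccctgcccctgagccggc
Elovl6: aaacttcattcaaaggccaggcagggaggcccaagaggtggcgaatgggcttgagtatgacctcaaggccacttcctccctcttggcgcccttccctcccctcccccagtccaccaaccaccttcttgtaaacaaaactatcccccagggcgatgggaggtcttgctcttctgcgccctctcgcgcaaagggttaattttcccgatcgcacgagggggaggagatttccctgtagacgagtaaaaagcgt
Elovl5: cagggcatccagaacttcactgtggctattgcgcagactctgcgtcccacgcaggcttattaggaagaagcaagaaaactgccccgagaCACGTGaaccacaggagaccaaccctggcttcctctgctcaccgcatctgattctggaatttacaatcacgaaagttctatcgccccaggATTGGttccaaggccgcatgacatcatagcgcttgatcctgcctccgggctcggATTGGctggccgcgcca
Fads2: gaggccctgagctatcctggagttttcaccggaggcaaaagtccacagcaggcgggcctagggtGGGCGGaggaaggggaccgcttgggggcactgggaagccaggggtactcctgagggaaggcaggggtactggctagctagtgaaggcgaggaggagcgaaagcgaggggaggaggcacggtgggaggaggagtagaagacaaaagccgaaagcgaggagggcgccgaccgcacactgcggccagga
The Hmgcs1 stretch holds the sterol regulatory element, whose first base is at -137 from the start, with CCAAT boxes on both sides of it. Msmo1 has 3 CCAAT and 2 GGGCGG boxes. The searched letters do not occur in the Elovl6 window. Elovl5 has 2 CCAAT boxes and 1 E-box, and Fads2 has 1 GGGCGG box.

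Fatty acid synthesis starts with Acly, which turns citrate into cytosolic acetyl-CoA, Acaca, which makes malonyl-CoA, and Fasn, the synthase that assembles palmitate. Acly stood at 537, 609 and 549 CPM (log2 fold change 0.06, SE 0.13). Acaca stood at 68.7, 84.3 and 69.6 CPM (log2 fold change 0.14, SE 0.19, adjusted p = 0.650). In both, the wild type was inside the Pax5-/- range. Fasn stood at 503, 813 and 438 CPM (log2 fold change 0.59, SE 0.32, adjusted p = 0.267). Both Pax5-/- samples were above the wild type for Fasn but far from each other, and none of these 3 genes was called.

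Scd1, a stearoyl-CoA desaturase that puts the first double bond into saturated chains, was the most changed member. The gene (Entrez 20249; chromosome 19, 44394450 to 44407709, mm10) had 5018 counts in the wild type, against 79 and 151 in the Pax5-/- samples. On the CPM scale Scd1 stood at 12.2, 22.2 and 783, with both Pax5-/- samples far below the wild type. It fell (log2 fold change -5.51, SE 0.37, adjusted p = 0.00488, edgeR), 45.4-fold lower, and was called under each of the 8 other analysis settings run. Of the 14 stromal and adipocyte markers, 4 were tested and 0 called in the main fit. With RLE scaling, no filter or robust dispersion, 1 marker was called lower in Pax5-/-. With an assumed biological variation (coefficient 0.4), 1 was called lower and 1 higher. Cxcl12 had 18, 7 and 60 counts, Col1a1 12, 6 and 23, and Col1a2 3, 11 and 17, each highest in the wild type. Of the remaining stromal genes, Col3a1 had 4, 1 and 7 counts, Sparc 1, 3 and 3, Pdgfra 4, 0 and 1, and Dcn and Lum 0 in every library. Of the adipocyte genes, Pparg had 13, 8 and 0 counts, Adipoq 4, 6 and 1, Fabp4 1, 0 and 0, Lpl 0, 1 and 1, and Plin1 and Cfd 0 in every library. The summed level of all 14 stromal and adipocyte markers there was 17.6 CPM and that of 10 myeloid markers 91.7 CPM, and their part in the result was not tested. In bulk RNA, fewer cells that express a gene and less of its RNA per cell cannot be told apart.

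Scd2 encodes a second desaturase of the same activity and lies 87.6 kb from Scd1 on chromosome 19. It had 4207, 6912 and 2951 counts, or 649, 1015 and 460 CPM. Both Pax5-/- samples were above the wild type, but Scd2 was not called (log2 fold change 0.85, SE 0.30, adjusted p = 0.131). Per length, Scd1 made up 2.07% and 2.40% of the summed Scd1 and Scd2 level in Pax5-/- and 65.7% in the wild type. That sum was 122 and 191 RPKM against 246 RPKM. The wild type thus carried Scd1 above Scd2, at 162 and 84.4 RPKM, and Pax5-/- samples carried almost only Scd2. Of 50-base stretches of their GENCODE transcripts, 4.56% for Scd1 and 3.97% for Scd2 also occur in another gene's transcripts, those of the Scd family among them.

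Of the elongases, 1 fell and 1 rose. Elovl6, which extends palmitate to stearate, had 856, 774 and 3393 counts, or 132, 114 and 529 CPM. The Pax5-/- samples were close to each other and far below the wild type. Elovl6 (chromosome 3, 129532386 to 129638495) fell (log2 fold change -2.11, SE 0.14, adjusted p = 0.00477), 4.31-fold lower. Elovl5, which extends polyunsaturated chains, stood at 258, 287 and 157 CPM and rose (log2 fold change 0.79, SE 0.14, adjusted p = 0.0317), 1.73-fold. Per length, Elovl6 was above Elovl5 in the wild type, at 88.9 and 56.5 RPKM. In Pax5-/- the order was turned, with Elovl6 at 20.7 ± 2.19 and Elovl5 at 97.9 ± 7.37 RPKM (SD, n = 2).

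The front-end desaturases Fads1 and Fads2 insert double bonds into polyunsaturated chains and lie 81.4 kb apart on chromosome 19. Fads2 (10062765 to 10101503), which acts first, had 1844, 1898 and 810 counts, or 285, 279 and 126 CPM. The Pax5-/- samples nearly coincided. Fads2 rose (log2 fold change 1.16, SE 0.12, adjusted p = 0.0115), 2.23-fold. Fads1 stood at 186, 167 and 139 CPM, above the wild type in both Pax5-/- samples, but was not called (log2 fold change 0.34, SE 0.14, adjusted p = 0.180). The calls of Fads2 and Elovl5 were lost with an assumed biological variation (coefficient 0.4), and those of Scd1 and Elovl6 were not.

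**Figure D4:**
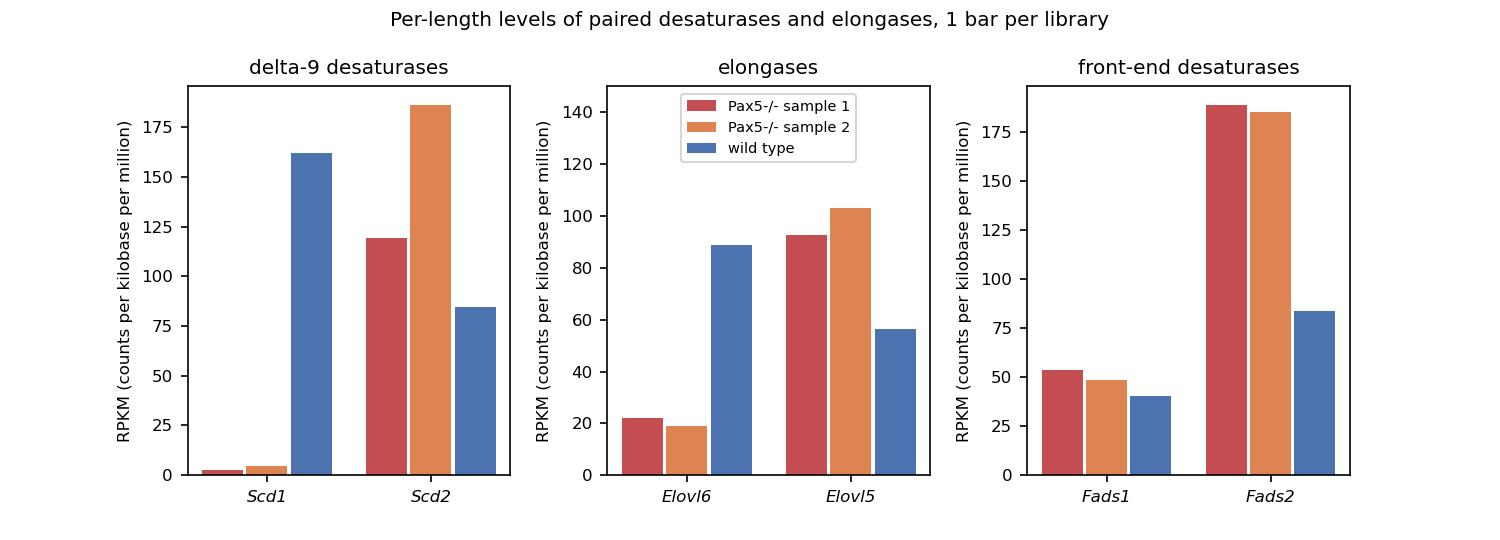
Per-length level (RPKM) of 3 pairs of fatty acid enzymes, 1 bar per library with no error bar, on linear axes from 0. Scd1 and Elovl6 are taller in the wild type, while Scd2, Elovl5 and Fads2 are taller in both Pax5-/- libraries.

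Summed over the 9 fatty acid genes, the level was 658 and 775 RPKM in Pax5-/- and 691 RPKM in the wild type, between the Pax5-/- samples. The most abundant member per length was Scd1 in the wild type, at 162 RPKM, followed by Acly at 124 RPKM. In Pax5-/- it was Fads2 at 187 ± 2.72 RPKM (SD, n = 2), followed by Scd2 at 153 ± 47.5 and Acly at 129 ± 11.5 RPKM. Fads2 and Scd2, and Scd2 and Acly, did not differ beyond the spread of Scd2. The median log2 CPM difference of the arm was 0.34, against -0.0026 for all genes tested, although its largest changes were downward. It was 0.28 with Pax5-/- sample 2 alone and 0.20 with sample 1 alone.

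Other genes of these pathways were taken from 3 lists, to be read beside the 18.1% called among all genes tested. Of 9 further genes of sterol synthesis, 9 were tested, 1 rose and 8 were not called. The gene that rose was Cyb5r3, a cytochrome b5 reductase that supplies electrons to sterol and fatty acid oxidases, at 76.4, 71.4 and 43.5 CPM (log2 fold change 0.76, SE 0.16, adjusted p = 0.0438). Its call was lost with DESeq2 and with the assumed coefficient of variation.

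Of 13 genes of SREBP processing and of sterol uptake, storage and efflux, 11 were tested, 3 rose, 1 fell and 7 were not called. The share called over all genes tested was 18.1%. Abcg1, a cholesterol exporter, stood at 250, 296 and 76.9 CPM and rose (log2 fold change 1.83, SE 0.17, adjusted p = 0.00900). Abca1, a second exporter, rose from 4 counts in the wild type to 49 and 116 (log2 fold change 4.26, SE 0.88, adjusted p = 0.0459), which limma-voom and scaling by library size alone did not call. Npc1, which moves cholesterol out of lysosomes, stood at 88.3, 121 and 39.9 CPM and rose (log2 fold change 1.39, SE 0.26, adjusted p = 0.0362). Mylip, a ubiquitin ligase that lowers the LDL receptor, stood at 15.0, 16.7 and 90.6 CPM and fell (log2 fold change -2.51, SE 0.15, adjusted p = 0.00429). Abca1, Abcg1 and Mylip are among the known targets of the sterol-sensing LXR receptors, and no full list of such targets was examined. Abca1 and Abcg1 rose and Mylip fell, and a part of the LXR receptors in these changes was not tested. Of the LXR genes, Nr1h2 was not called (log2 fold change -0.13, SE 0.14) and Nr1h3 was below the filter with 1, 8 and 1 counts; both were named after their values were seen.

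Of 28 further genes of fatty acid and acylglycerol synthesis, 18 were tested, 3 rose, 3 fell and 12 were not called. Over all genes tested 18.1% were called, and whether the lists differ from that share was not tested. Slc25a1, the carrier that exports citrate from mitochondria to Acly, stood at 480, 553 and 178 CPM and rose (log2 fold change 1.54, SE 0.15, adjusted p = 0.00900). Oxsm, a synthase of the mitochondrial fatty acid pathway, stood at 34.4, 41.4 and 13.7 CPM and rose (log2 fold change 1.47, SE 0.21, adjusted p = 0.0212). Elovl7, another elongase, had 2 counts in the wild type and 163 and 218 in Pax5-/-, a ratio of 91.9 (95% counting interval 25.3 to 762; edgeR adjusted p = 0.00509). All 3 were higher in both Pax5-/- samples than in the wild type. Gpam, which starts acylglycerol assembly, stood at 15.7, 17.5 and 144 CPM and fell (log2 fold change -3.11, SE 0.15, adjusted p = 0.00337). Acss2, which makes acetyl-CoA from acetate, stood at 3.55, 3.53 and 10.8 CPM and fell (log2 fold change -1.60, SE 0.31, adjusted p = 0.0395), which DESeq2 did not call. Acsl4, an X-linked acyl-CoA synthetase, stood at 58.2, 70.5 and 127 CPM and fell (log2 fold change -0.98, SE 0.18, adjusted p = 0.0352), which scaling by library size alone did not call. Nsdhl, Ebp and Mbtps2 of the other lists are X-linked too and were not called (log2 fold changes 0.14, -0.08 and 0.125). They were named after their values were seen, and a part of sex was not tested. With the assumed biological variation (coefficient 0.4), Elovl7, Gpam, Mylip and Abca1 were still called, and Cyb5r3, Npc1, Abcg1, Slc25a1, Oxsm, Acss2 and Acsl4 were not.

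**Figure D5:**
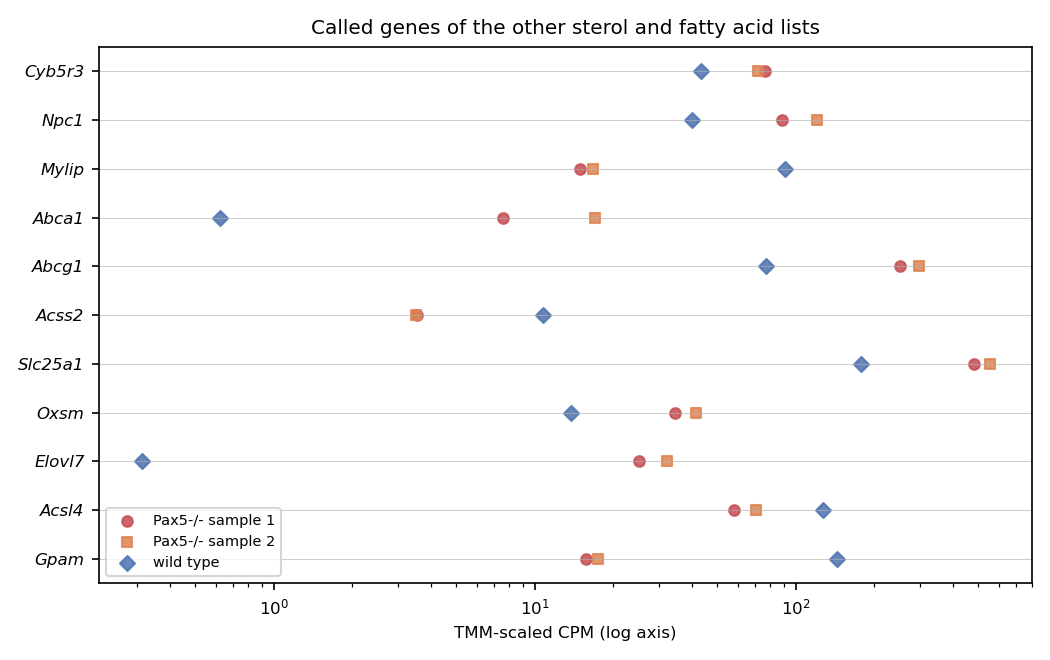
TMM-scaled CPM on a log axis of the 11 called genes of the 3 other lists, 1 point per library. In each row the Pax5-/- libraries lie on the same side of the wild type, and the widest gaps are those of Elovl7, Abca1 and Gpam.

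Sequence shared with other genes limits some members. Of 31 members, 6 had over 10% of their 50-base transcript stretches in another gene as well: Acat2, Acaca, Fdft1, Fdps, Idi1 and Hmgcs1, from 39.1% for Acat2 to 11.6% for Hmgcs1. Their counts are uncertain to that extent, since how shared reads were assigned is not given in the sources used here. For Fads2 the share was 0.152%, for Elovl6 3.98%, and for Elovl5 and Fads1 no stretch was shared.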

How the data were processed

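Gene counts of 2 Pax5-/- and 1 wild-type pro-B RNA-seq libraries were used as deposited. The authors made the counts with featureCounts on mm10, per the submitters' processing notes; version, aligner, annotation and strand use: not given in the sources used here. Overlapping or antisense genes may therefore share reads. Per the file headers each gene has an Entrez number, a length in bases and a whole-number count, not normalized. Symbols came from RefSeq genes of GRCm38.p6 (25275 of 27179 numbers matched). Total counts were 6530057 for the wild type, 6487846 for Pax5-/- sample 1 and 6697879 for sample 2; 3 counts, the limit that a 0 allows, are 0.441 to 0.468 CPM. Intervals and floors from counts cover counting error only.

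In R 4.3.3, edgeR 4.0.16 kept genes by filterByExpr (minimum count 10), scaled by TMM (factors 0.983 to 1.018) and tested Pax5-/- against wild type by quasi-likelihood, with Benjamini-Hochberg adjustment over all genes and a threshold of 0.05. There was 1 residual degree of freedom beside 3.15 prior ones, and the wild type was assumed to vary like the Pax5-/- pair. SE is the absolute fitted log2 fold change over the square root of F; 95% intervals used 4.14 degrees of freedom. The fits were tested on simulated data. DESeq2 1.42.0, limma 3.58.1 (voom), other scalings and filters, robust dispersion and an assumed biological coefficient of variation of 0.4 were alternatives. Members, lists and tests were chosen with earlier results of these data known. Named were all members; of the other lists, every called gene with a mean CPM of at least 1, up to 6 per list. Motifs and shared 50-base stretches were searched in RefSeq promoters and GENCODE M21 transcripts.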

Additional observations from a re-analysis of the deposited data

How the results depend on the processing

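The 8 alternative settings (RLE scaling, library size alone, no filter, a CPM filter, DESeq2, limma-voom, an assumed biological coefficient of variation of 0.4 and robust dispersion) each called 0 sterol and 0 control genes. With the assumed coefficient of 0.4, calls over all genes dropped from 2130 to 1206, those of the fatty acid arm from 4 to 2 and those of the other lists from 11 to 4. The other 7 settings stayed within 1.5 times of each of these counts. Without Pax5-/- replicate 1 or 2 in turn, 1 library faced 1 and no test was possible: the median log2 CPM difference was -0.1771 to 0.0898 for the sterol arm (0.05 with both), 0.20 to 0.28 for the fatty acid arm (0.34 with both) and -0.06 to 0.0066 for the control genes (-0.03 with both). Scd1 stayed between -5.97 and -5.12 and Elovl6 between -2.22 and -1.9996. No paired analysis was possible with 1 wild-type library. Depth limits Tm7sf2, with 16 to 21 counts.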

Other observations

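Several genes of the same pathways were at or near 0 in these cells. Scd3, Me1, which makes NADPH for lipid synthesis, and Elovl3 had 0 counts in every library, which allows up to 0.441 to 0.468 CPM. Scd4 had 2, 1 and 1 counts, so Scd1 and Scd2 were the desaturases of that family that were clearly detected. The glucose-sensing factor gene Mlxipl had 1, 0 and 0 counts, while its paralogue Mlxip stood at 105, 103 and 157 CPM. Mlxip was not called (log2 fold change -0.60, SE 0.13, edgeR adjusted p = 0.0540), and its adjusted p ranged from 0.0352 to 1.00 over the 8 alternatives, 4 of which called it. Ch25h, whose enzyme makes an oxysterol that restrains SREBPs, had 0, 1 and 0 counts. Isg15 was at 283 CPM in Pax5-/- sample 1 against 2.94 CPM in sample 2. Any link of Ch25h or Isg15 to the levels of the sterol genes was not tested. The genes in this paragraph were named after their values were seen.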
